A study of Mus musculus with 2 samples.

Results

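The genes described here encode tau and its relatives that bind the sides of microtubules (Mapt, Map1a, Map1b, Map2, Map4 and Map6) and the stathmins (Stmn1, Stmn2, Stmn3 and Stmn4). They were chosen by name, as 2 families of neuronal microtubule regulators, with earlier results of these data known. They make up 10 of the 55536 annotated genes in the deposited tables. Their annotation holds 91 of the 141862 transcripts, of which 38 have a complete coding sequence. All 10 gene rows and all 91 transcript rows were found by gene identifier, and 8 transcripts had no read in either library by either program.

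Polyadenylated RNA of mouse hippocampus was sequenced as 2 libraries of a single group, which the labels call biological replicates 1 and 2. The mice were adults of 6 months, named strain B6NCrl in one label and C57BL/6 in another, with no allele or treatment given, and each library was made by Nextera tagmentation from 20 ng of RNA. A free-text label calls the animals male, while the sex field reads as not collected, and of the genes on the Y chromosome Uty, Ddx3y and Eif2s3y held 0 reads in both libraries and Kdm5d held 1 read in replicate 1. Both libraries carry the same donor identifier, so whether they come from separate animals is not given, and the spread between them may be technical. There is no second condition, so levels and transcript shares are reported as descriptions, and the sole comparison is between the libraries. Markers of the labelled tissue were present, with 3 of 3 granule neuron markers of the dentate gyrus above 1 TPM in both libraries and a summed level of 212 and 238 TPM.

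Microtubules are hollow polymers of tubulin that give axons and dendrites their shape and carry their transport. Tau, MAP2 and MAP4 bind along the polymer through a domain of short repeats near the carboxyl end, with a projection domain that extends away from it. The MAP1 proteins are made as long precursors that are cut into a heavy and a light chain. MAP6 protects microtubules from disassembly in the cold. Stathmins bind free tubulin dimers and promote disassembly, and the neuronal stathmins carry an added amino-terminal stretch that anchors them to membranes.

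Alternative exons set the forms of tau and MAP2, and 3 of those that the tau results turn on are shown here. All lie on the + strand of mm10 and are coding exons of the M21 annotation, from whose transcript sequences they were read. Exons 2 and 3 of Mapt, at chr11:104287123-104287209 and chr11:104289908-104289994, are 87 bases each and code for the amino-terminal inserts that give tau its 0N, 1N and 2N forms. Exon 8, at chr11:104307881-104307934, has 54 bases. The exon numbers of Mapt used here are not in the annotation: they were assigned from exon length and order by the usual numbering of the tau gene, and the forms of tau named below rest on that assignment. All letters are in lower case, since no part of these exons is singled out.
Mapt exon 2: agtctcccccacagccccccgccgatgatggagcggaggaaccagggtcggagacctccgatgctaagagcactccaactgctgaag
Mapt exon 3: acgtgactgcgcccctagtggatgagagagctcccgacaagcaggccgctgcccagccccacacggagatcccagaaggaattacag
Mapt exon 8: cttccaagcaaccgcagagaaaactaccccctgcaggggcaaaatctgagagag

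Mapt and Map2 share no stretch of 31 bases, read on the sense strand, with any annotated gene outside those described here. No near-identical copy among those outside genes therefore competes for their reads at that length. Sharing of Mapt or Map2 with the other genes described here, or with the opposite strand, was not tested. The antisense gene Gm10558 overlaps Map2 on the opposite strand and held reads in both libraries.

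The level of each gene is given as TPM, a unit scaled for transcript length and depth, from the first of 2 quantification programs. Stathmins and MAPs both reached high levels, and the 10 genes spanned 26.3 to 959 TPM. Stmn3 ranked 164th and Map6 4297th among all genes. Neighbouring genes in the order Stmn3, Map1b, Stmn2, Stmn1, Map4, Map2, Mapt, Map1a, Stmn4 and Map6 did not overlap between the 2 libraries, except that Stmn2 overlapped Stmn1 and Stmn1 overlapped Map4. In bulk tissue, fewer cells of a type and less RNA per cell cannot be told apart.

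**Figure D1:**
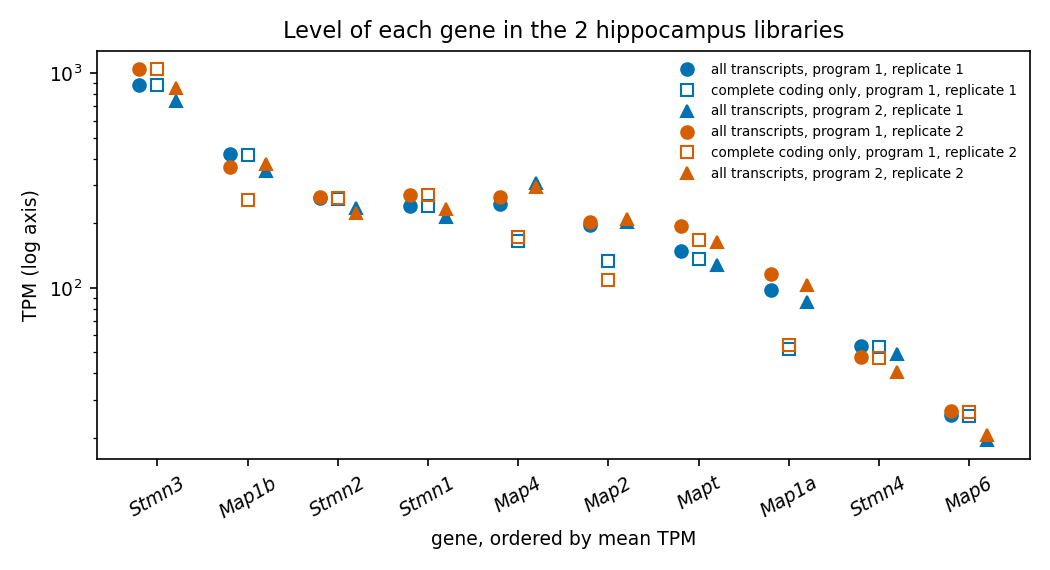
TPM on a log axis for the 10 genes in each library, ordered by mean. Circles are all transcripts by the first program, open squares only transcripts with a complete coding sequence, and triangles the second program; blue is replicate 1 and orange replicate 2. Open squares lie below the circles most clearly for Map1a, Map2 and Map4, and for Map1b only in replicate 2.

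Mapt (ENSMUSG00000018411.17, chr11:104231390-104332090, + strand), which encodes tau, had 149 TPM in replicate 1 and 194 TPM in replicate 2. The mean was 171 ± 31.6 TPM (SD, n = 2), and replicate 2 was the higher. Tau made up 14.9% ± 2.41 (SD, n = 2) of the summed TPM of the 6 MAP genes. The values rested on 8294 and 9533 expected reads.

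Map2 (ENSMUSG00000015222.17, chr1:66175273-66442583, + strand), the main dendritic MAP, had 195 TPM in replicate 1 and 203 TPM in replicate 2. Its mean of 199 ± 5.71 TPM (SD, n = 2) was 17.3% ± 0.110 of the MAP sum. Although its TPM was higher in replicate 2, its expected reads were lower there, at 21049 against 24345.

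Map4 (ENSMUSG00000032479.15, chr9:109931460-110083955, + strand), which is made in most cell types, had 247 TPM in replicate 1 and 264 TPM in replicate 2. Its mean of 255 ± 12.4 TPM (SD, n = 2) made it second among the MAPs, at 22.2% ± 0.587 of their sum. By transcripts with a complete coding sequence its level was 165 and 173 TPM. That level includes Map4-206, whose coding sequence has only 99 codons, at 83.6 and 90.4 TPM in replicates 1 and 2.

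Map1b (ENSMUSG00000052727.6, chr13:99421446-99516540, - strand) was the highest of the MAPs. This gene, known for high levels in growing axons of the developing brain, had 418 TPM in replicate 1 and 365 TPM in replicate 2, with a mean of 391 ± 37.7 (SD, n = 2). It made up 34.1% ± 4.03 of the MAP sum, and its 147992 and 99762 expected reads were the most of the 10 genes. Map1a (ENSMUSG00000027254.13, chr2:121289600-121310832, + strand), known as the MAP1 form of mature neurons, had 97.5 TPM in replicate 1 and 116 TPM in replicate 2, with a mean of 107 ± 12.8 (SD, n = 2). In both libraries Map1b lay above Map1a, also when only transcripts with a complete coding sequence were counted, at 417 and 257 TPM for Map1b and 52.1 and 54.0 TPM for Map1a.

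Map6 (ENSMUSG00000055407.14, chr7:99267447-99337137, + strand) was the lowest of the 10 genes, with 25.7 and 26.8 TPM in replicates 1 and 2. Its mean was 26.3 ± 0.792 TPM (SD, n = 2), or 2.28% ± 0.018 of the MAP sum.

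Stmn3 (ENSMUSG00000027581.12, chr2:181306459-181314500, - strand) led the stathmins and all 10 genes, with 877 and 1042 TPM in replicates 1 and 2. The mean of 959 ± 117 TPM (SD, n = 2) was 62.7% ± 2.13 of the summed TPM of the 4 stathmins. Stmn2 (ENSMUSG00000027500.10, chr3:8509360-8561606, + strand), a stathmin of growth cones that is used as a marker of neurons, had 262 TPM in replicate 1 and 264 TPM in replicate 2. Stmn1 (ENSMUSG00000028832.11, chr4:134468320-134473843, + strand), the cytosolic founding member of the family, had 241 TPM in replicate 1 and 270 TPM in replicate 2. Stmn1 and Stmn2 did not differ beyond the spread of the libraries, with 16.7% ± 0.092 and 17.3% ± 1.45 of the stathmin sum (SD, n = 2). Stmn4 (ENSMUSG00000022044.14, chr14:66344296-66361680, + strand) was the lowest stathmin, with 53.9 and 47.6 TPM in replicates 1 and 2, or 3.34% ± 0.586 of the sum.

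The 4 stathmins are close relatives, so a stretch of their coding sequence is shown where their alignment is most alike, to let the reader see how far apart the transcripts are. Each line holds 60 bases from the coding sequence of the leading transcript, at positions counted from its start codon: 241 to 300 in Stmn1, 343 to 402 in Stmn2, 346 to 405 in Stmn3 and 373 to 432 in Stmn4. Capitals mark positions that are not the same in all 4 genes.
Stmn1: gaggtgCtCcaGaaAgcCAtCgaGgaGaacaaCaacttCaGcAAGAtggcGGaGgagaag
Stmn2: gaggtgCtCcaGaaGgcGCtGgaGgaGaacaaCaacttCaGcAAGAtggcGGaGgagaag
Stmn3: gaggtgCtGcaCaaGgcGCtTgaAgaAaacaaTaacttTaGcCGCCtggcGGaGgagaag
Stmn4: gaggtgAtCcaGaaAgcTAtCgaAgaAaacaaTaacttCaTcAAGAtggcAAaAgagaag

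In this window 41 of 60 bases were the same in all 4 stathmins. Over the aligned coding sequence, identity between pairs ran from 66.1% for Stmn3 and Stmn4 to 73.6% for Stmn2 and Stmn3. Stmn1 and Stmn2 shared 13 stretches of 31 bases, and the other stathmin pairs shared 0. A near-identical copy exists for Stmn1: the processed pseudogene Gm11223 holds 389 of its 31-base stretches, and was assigned 15.6 reads in replicate 1 and 16.5 in replicate 2, beside 6640 and 7702 reads for Stmn1.

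The order of the genes depended on the unit and the program. By reads not scaled for length, Map1b came first and Stmn3 second, and Stmn4 was last. The second program placed Map4 as the third, above Stmn2 and Stmn1, at 308 and 295 TPM. By transcripts with a complete coding sequence, Mapt (136 and 167 TPM) came before Map2 (133 and 108 TPM). Stmn3, Map1b, Map1a, Stmn4 and Map6 kept their place in all 3 orders on the TPM scale.

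Between the programs, the median log2 ratio of the second to the first over the 10 genes was -0.17 in replicate 1 and -0.22 in replicate 2. Over the 14397 and 14235 genes of at least 1 TPM, the same medians were -0.22 and -0.27. Map4 lay furthest above these medians in replicate 1, with a log2 ratio of 0.32, and Map6 furthest below, with -0.40. In replicate 2 the values were 0.16 for Map4 and -0.37 for Map6.

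For each gene the 2 libraries were compared by an exact conditional binomial test, two-sided, on rounded expected counts, against library sizes scaled by edgeR's TMM method, with Benjamini-Hochberg adjustment over 14080 genes. The test covers counting error only and compares these libraries, not conditions. No gene of the 10 reached a 2-fold difference at an adjusted p under 0.05, a limit that 2.41% of all genes tested passed, 0.433% with more in replicate 2 and 1.97% with more in replicate 1. At any size, 10 of 10 passed, where 47.1% of all genes tested passed, and 66.8% of the 4080 genes with at least the mean count of the lowest of the 10. The share for the 10 genes is therefore read against their depth: their median absolute log2 ratio was 0.17, beside 0.16 over all genes tested.

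Of the 10 genes, 7 passed at any size with more scaled reads in replicate 2 and 3 with more in replicate 1. Of all genes tested, 23.6% passed at any size in each direction, and 66.8% passed in either among genes counted at least as deeply as the lowest of the 10. The median log2 ratio was 0.09 over the 10 genes and 0.01 over all genes tested. Map1b differed most: it had 1.49-fold more scaled reads in replicate 1, a log2 ratio of replicate 2 to replicate 1 of -0.58 (95% counting interval -0.59 to -0.56), and its adjusted p by the exact binomial test was listed as 0, below the smallest number the computation holds. Of all genes tested, 7.93% had a larger absolute ratio. Map2 was the next among the genes higher in replicate 1, with a log2 ratio of -0.22 (adjusted p = 3.47e-56, exact binomial test with Benjamini-Hochberg adjustment). Stmn4 had a log2 ratio of -0.15 and an adjusted p of 0.00512 by the same test.

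Stmn3 led the genes higher in replicate 2, with a log2 ratio of 0.28 (95% counting interval 0.26 to 0.31; adjusted p = 1.37e-121, exact binomial test). Stmn1 followed at 0.21 (adjusted p = 1.37e-16, exact binomial test) and Mapt at 0.19 (adjusted p = 5.21e-18, exact binomial test). The log2 ratios of Map6, Map1a, Map4 and Stmn2 lay between 0.05 and 0.13. Stmn2 was the closest to the threshold, with an adjusted p of 0.0128 by the exact binomial test, and 0.0952 when the library totals replaced the TMM scaling. With a preset dispersion of 0.01 in edgeR's exactTest, which allows for spread between libraries, 0 of the 10 genes passed at any size, with adjusted p from 0.0986 for Map1b to 1 for Map4, Map1a and Stmn2.

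**Figure D2:**
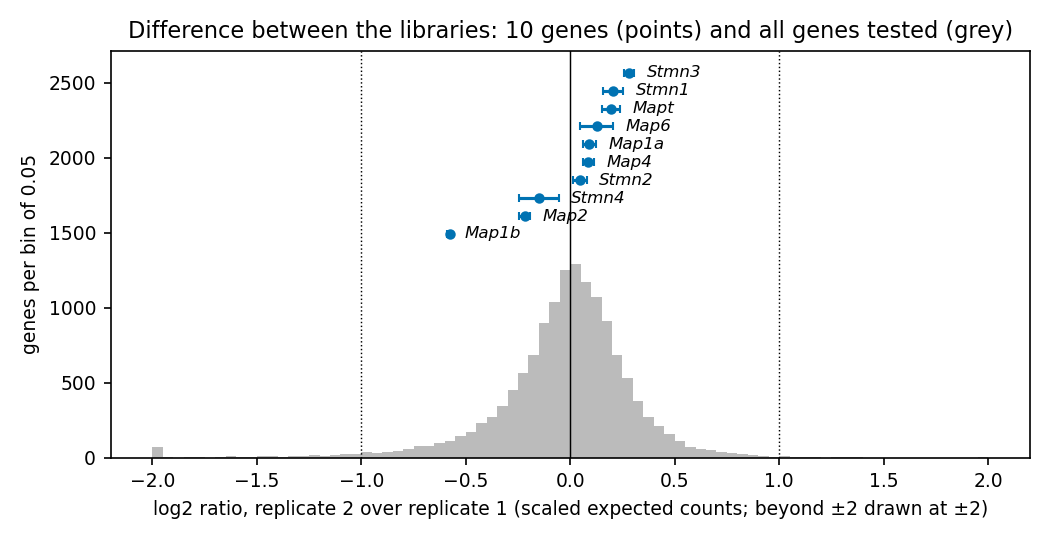
Log2 ratio of replicate 2 to replicate 1 for the 10 genes (points, with bars for the 95% counting interval; their height has no meaning) above a histogram of all 14080 genes tested in bins of 0.05. Dotted lines mark a 2-fold difference; all 10 points lie between them, with Map1b lowest at -0.58 and Stmn3 highest at 0.28.

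Markers of the cell types in the tissue moved with the libraries to different degrees. The median log2 ratio of replicate 2 to replicate 1 was 0.18 over 7 pan-neuronal markers, 0.24 over 3 glutamatergic, 0.18 over 3 granule neuron and 0.04 over 3 interneuron markers. It was 0.13 over 5 oligodendrocyte, 0.26 over 3 oligodendrocyte precursor, 0.10 over 4 microglia, -0.17 over 5 astrocyte and -0.47 over 3 ependymal markers. Choroid plexus markers stood apart: 4 of 4 were at least 2-fold higher in replicate 1, their summed level was 15241 and 129 TPM in replicates 1 and 2, and none was at 0 in either. By the exact binomial test at an adjusted p under 0.05, 1.97% of all genes tested were at least 2-fold higher in replicate 1. The median log2 ratio over all genes tested was 0.01. Newborn neuron markers were low in both libraries, with a summed level of 20.96 and 20.40 TPM over 4 genes. The 3 of them that were tested had a median log2 ratio of -0.06, from -0.60 for Sox11 to 0.22 for Neurod1. The part of these differences in the ratios of the 10 genes was not tested.

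Mapt has 12 annotated transcripts, 5 of them with a complete coding sequence, and 5 held at least 5% of the gene's TPM in some library or program. The highest was Mapt-205, a 0N form of 390 codons that holds exon 8, with 67.6 and 88.1 TPM in replicates 1 and 2. Mapt-201, a 2N form of 430 codons, had 43.2 and 56.8 TPM. Mapt-204, a 0N form of 372 codons without exon 8 and with 3906 bases from the stop codon to its end, had 23.6 and 20.4 TPM. So Mapt-205 and Mapt-201 were higher in replicate 2, as the gene was, while Mapt-204 was lower there. The incomplete Mapt-207 and Mapt-211, given below, were also higher in replicate 2. Mapt-201 holds 0 stretches of 31 bases of its own, so its level rests on how shared reads were split.

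The incomplete transcripts Mapt-207 and Mapt-211 held most of the remainder. Mapt-207, which holds exon 2 without exon 3, had 8.16 and 13.3 TPM. Mapt-211 had 1.08 and 8.62 TPM by the first program, against 3.59 and 16.1 TPM by the second. Both were higher in replicate 2 by both programs, which read the same libraries. Mapt-211 holds 0 stretches of 31 bases that no other Mapt transcript holds.

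Exon 10 separates tau with 4 microtubule-binding repeats (4R) from tau with 3 (3R), and the share of 4R tau could not be measured from these tables. The exon lies in 6 of the 12 Mapt transcripts, including all 5 complete ones, and 0 transcripts are annotated as skipping it, so the 4R share of 100% is set by the annotation and 3R tau RNA has no transcript of its own to be counted under.

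Transcripts with exons 2 and 3 (2N) took 32.9% and 34.9% of the TPM of the complete coding transcripts, a mean of 33.9% ± 1.41 (SD, n = 2). The other 66.1% ± 1.41 was 0N. The second program gave 35.8% and 40.7% for 2N, and shares of reads in place of TPM gave a mean of 22.4%. No complete transcript is annotated as 1N. With incomplete transcripts included, 7.56% ± 0.901 (SD, n = 2) of TPM was 1N and 30.4% 2N. By reads the same means were 0.761% for 1N and 22.1% for 2N. Most of the 1N TPM came from Mapt-207, of 293 bases, with 36.2 and 64.0 reads in replicates 1 and 2.

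Exon 4A, the large exon of the peripheral form known as big tau, spans 759 bases at chr11:104298498-104299256 and lies in Mapt-202 and Mapt-203. These took 1.096% and 0.858% of the TPM of complete transcripts, so the form was at the bottom of the range in both libraries. Exon 8, by contrast, was in transcripts holding 49.7% and 52.9% of that TPM, a mean of 51.3% ± 2.21 (SD, n = 2), and 46.9% ± 0.338 in the second program. This share rests on Mapt-205 alone, the sole transcript with exon 8 in the annotation, against Mapt-204 as the sole complete 0N transcript without it. From the stop codon on, Mapt-205 is annotated with 251 bases and Mapt-201 with 35. Of the 31-base stretches of each transcript, 82 were found in Mapt-205 only, 3744 in Mapt-204 only and 0 in Mapt-201 only. Shares of reads gave 37.7% ± 4.45 (SD, n = 2) for exon 8.

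**Figure D3:**
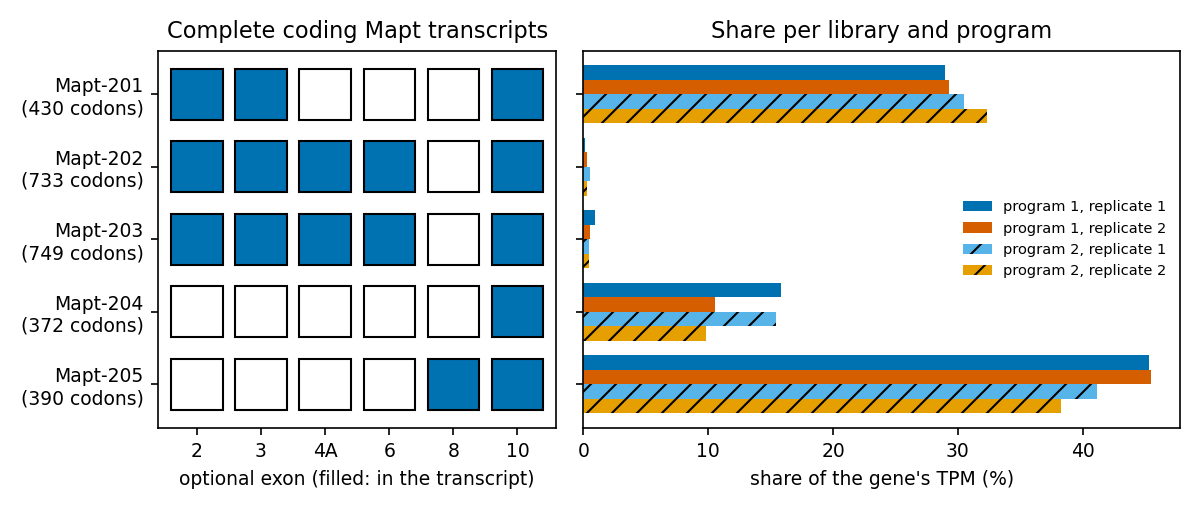
Left, the optional exons held (filled) by the 5 complete coding Mapt transcripts; right, each transcript's share of the gene's TPM in percent, by program and replicate. Exon 10 is filled in all 5 rows; Mapt-205 holds 45.3% and 45.5% by the first program and Mapt-204 holds 15.8% in replicate 1 and 10.5% in replicate 2.

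Map2 has 24 annotated transcripts, 7 of them complete, and 6 held at least 5% of the gene's TPM in some library or program. Its forms differ by an exon of 3741 bases at chr1:66412407-66416147, which codes for most of the projection domain of the high-molecular-weight proteins MAP2A and MAP2B and is absent from MAP2C and MAP2D. Among complete transcripts only Map2-204, of 1828 codons, holds it, and it was the highest Map2 transcript, with 74.8 and 60.7 TPM in replicates 1 and 2.

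The complete transcripts without the large exon have 466 to 498 codons and long stretches beyond the coding sequence. Map2-201 had 36.3 and 27.4 TPM, Map2-205 11.7 and 14.1 TPM, and Map2-202 0 TPM in both libraries by the first program but 10.1 and 0.828 TPM by the second. Map2-204 is annotated with 184 bases from its stop codon to its end and Map2-201 with 3577, so reads from a long end cannot be counted under the long form as annotated.

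The long form took 56.2% of the TPM of complete Map2 transcripts in replicate 1 and 55.99% in replicate 2, a mean of 56.1% ± 0.153 (SD, n = 2), so the libraries lay close together. In the second program the share was 52.9% and 52.2%. When incomplete transcripts were included, the share was 61.4% in replicate 1 and 68.9% in replicate 2, and the libraries no longer lay close by TPM. By reads the same shares were 61.7% and 62.6%.

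Among the incomplete transcripts that hold part of the large exon, Map2-215 had 9.06 TPM in replicate 1 and 37.1 TPM in replicate 2, from 175 and 743 reads, and 22.6 and 46.6 TPM by the second program. Replicate 2 was the higher by both programs, which read the same libraries. Of the 755 stretches of 31 bases in Map2-215, 0 are found in no other Map2 transcript, so its level rests on how shared reads were split. Map2-218, another incomplete transcript of 546 bases, had 36.3 and 42.1 TPM. Map2-214, a retained intron, had 0.69 and 0.50 TPM by the first program against 6.97 and 16.9 TPM by the second. An optional repeat exon of Map2 was in 6.42% ± 0.922 (SD, n = 2) of complete Map2 TPM, nearly all from Map2-207 with 9.42 and 6.26 TPM. Unlike for Mapt, both states of the exon are annotated, with 4 transcripts holding it and 7 skipping it.

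**Figure D4:**
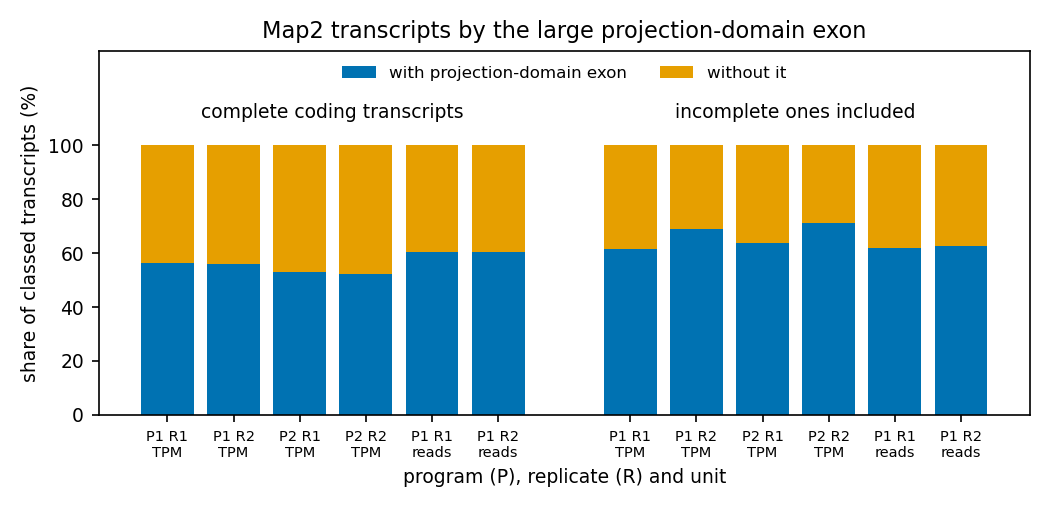
Share in percent of Map2 transcripts with (blue) and without (orange) the 3741-base projection-domain exon, by program (P), replicate (R) and unit. Among complete coding transcripts the blue share is 56.2% and 55.99% by TPM in the first program; with incomplete transcripts included it is 61.4% and 68.9%.

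Map1b showed the largest difference in transcript shares between the libraries. In replicate 1, Map1b-201, of 2464 codons, held 99.7% of the gene's TPM, and in replicate 2 it held 70.5%. By reads its share was 99.95% and 93.3%. Its level in the 2 libraries was 416 and 257 TPM. Map1b-206, a processed transcript of 2150 bases with no coding sequence annotated, had 0.15 TPM in replicate 1 and 104 TPM in replicate 2, from 8.89 and 6501 reads. The second program gave it 0.517 and 103 TPM, so both programs placed it in replicate 2.

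Map1b-206 lies at chr13:99433947-99444467 on the - strand. Of its bases, 1979 (92.0%) are also exonic in Map1b-201, and the 171 bases at chr13:99444297-99444467 are not. The second program also gave 74.7 TPM in replicate 2 to Map1b-202, another processed transcript, which had 1.16 TPM there by the first and close to 0 in replicate 1 by both. Both transcripts are shorter than Map1b-201, and the gene's TPM differed less between the libraries (418 and 365) than its reads did (147992 and 99762), and in the second program the gene's TPM was higher in replicate 2, at 376 against 349.

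The share of TPM on transcripts with a complete coding sequence was thus 99.7% for Map1b in replicate 1 and 70.6% in replicate 2, and 99.3% and 51.8% by the second program. Of 7778 genes, 3, with Map1b among them, had a difference at least as far below 0 by both programs. For Map2 the share in replicate 2 minus that in replicate 1 was -14.8 percentage points by the first program and -15.04 by the second, and 120 genes, with Map2 among them, went at least as far below 0 by both. The same difference was -6.69 and -8.11 points for Map1a and -5.06 and -7.03 points for Mapt.

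Over all 7778 genes with both kinds of transcript and at least 5 TPM, the median difference was -0.10 points by the first program and -0.40 by the second, and 43.8% of genes were lower in replicate 2 by both. In genes whose longest complete coding transcript is 6000 bases or more, the median was -0.73 and 53.4% were lower by both. Map6, Stmn1, Stmn2 and Stmn4 differed by less than 1 point by the first program, and Map4 by -1.61. By the second program the difference was 2.50 points for Stmn2 and 1.06 for Map4, whose sign thus turned. These are single differences between 2 libraries, with no test.

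**Figure D5:**
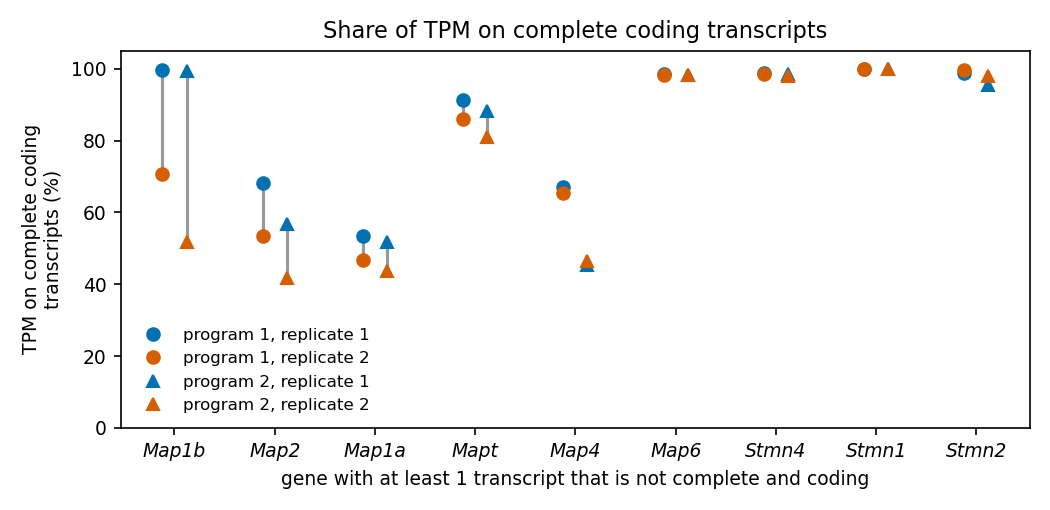
Share in percent of each gene's TPM on transcripts with a complete coding sequence, for the 9 genes that also have other transcripts; circles are the first program, triangles the second, blue replicate 1 and orange replicate 2. Grey lines join the replicates; the longest are those of Map1b (99.7% to 70.6% and 99.3% to 51.8%) and Map2.

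Map1a has 4 transcripts, of which 3 held at least 5% of its TPM. Map1a-201, of 3014 codons, had 16.7 TPM in replicate 1 and 19.3 TPM in replicate 2, and Map1a-202, of 2776 codons, had 35.4 and 34.7 TPM. The highest TPM belonged to Map1a-204, a processed transcript of 411 bases, with 45.2 and 61.5 TPM. It held 46.4% and 53.2% of the gene's TPM from only 359 and 517 of its 17083 and 18303 reads, so the gene's TPM depends on this short transcript and its read count hardly does. Map1a overlaps Ppip5k1 on the opposite strand, which had 817 and 992 reads, and the counting is not stated to use strand.

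Map4 has 17 transcripts, and 5 held at least 5% in some library or program. Map4-206, whose coding sequence has 99 codons in a transcript of 3446 bases, was the highest by the first program, with 83.6 and 90.4 TPM in replicates 1 and 2. Map4-209, a processed transcript, had 65.2 and 77.4 TPM. The longer coding forms were lower, with 42.7 and 42.9 TPM for Map4-204 of 933 codons and 22.0 and 23.0 TPM for Map4-205 of 1124 codons.

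Map4-207, a processed transcript of 442 bases, separated the programs: it had 1.77 and 1.00 TPM by the first and 96.6 and 69.1 TPM by the second. It shares 86 stretches of 31 bases with Gm47551, an antisense gene on chromosome 13, which had 15 and 14 reads by the first program and 2295 and 1979 by the second. The level of Map4-207, and with it the higher place of Map4 by the second program, is therefore uncertain.

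Map6 has 9 transcripts, 7 of them complete, and 6 held at least 5% in some library or program. Map6-201 and Map6-205 encode proteins of the same 906 codons and had 11.8 and 13.2 TPM, and 6.54 and 6.81 TPM. None of their 31-base stretches is found in 1 transcript only, and the first program's own bounds for Map6-201 in replicate 1 ran from 0.412 to 16.5 TPM, so the split between them was not resolved. Map6-204, of 568 codons, had 2.54 and 2.62 TPM. Map6-202 and Map6-206, of 306 codons, and Map6-203, of 509, were each at 0 in at least 1 library or program.

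The stathmins were each carried by 1 transcript. Stmn3-201, of 180 codons, is the sole transcript of Stmn3. Stmn1-201, of 149 codons, held 98.8% and 99.2% of its gene's TPM, and Stmn2-201, of 179 codons, 98.7% and 99.5%. Stmn4-201, of 189 codons, held 88.9% and 87.4%, and Stmn4-204, of 203 codons, 10.04% and 11.2%. For these genes the level per transcript and per gene was nearly the same in both libraries, unlike for Map1b, Map2, Map1a and Map4. Across all 10 genes, 33 transcripts reached 5% of a gene's TPM in some library or program and 58 did not.

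Other genes that act on microtubules were measured beside the 10. Among 13 MAPs and related binders, Dclk1, a doublecortin-like kinase, was highest at 71.0 ± 3.54 TPM, followed by Tppp at 70.3 ± 5.93 and Map7d1 at 40.5 ± 4.59 TPM (SD, n = 2). Map7d3 was lowest at 0.05 TPM. All 13 had a lower mean TPM than Map1a, but Dclk1 and Tppp lay above Stmn4 (50.7 TPM), and Map7d1, among others, above Map6 (26.3 TPM). Map1a itself had a mean of 53.1 TPM by complete coding transcripts only. By the exact binomial test at an adjusted p under 0.05, 3 of the 13 were higher in replicate 2 and 2 in replicate 1. The median log2 ratio was 0.01 over those tested. Over all 14080 genes tested the median was 0.01 as well, and 23.6% passed in each direction.

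Among 13 genes of proteins that bind microtubule ends, Clip3 was highest at 155 ± 39.7 TPM, followed by Mapre3, which encodes EB3, at 120 ± 25.2 and Clasp2 at 97.5 ± 1.76 TPM (SD, n = 2). Clip2 was lowest at 3.84 TPM. By the exact binomial test at an adjusted p under 0.05, 6 of this list were higher in replicate 2 and 3 in replicate 1. Of all genes tested, 23.6% passed in each direction and 47.1% in either. The median log2 ratio of the list was 0.07. Among the severing enzymes reported here, Katnal1 had 16.6 ± 0.247, Katna1 9.46 ± 0.262 and Katnal2 7.14 ± 1.56 TPM (SD, n = 2), and Fign was lowest at 0.63 TPM.

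The collapsin response mediators, which bind tubulin dimers in growing neurites, held the sole gene of these lists that passed a 2-fold difference. Of all genes tested, 2.41% passed that limit, 1.97% with more in replicate 1. Dpysl2 had 179 TPM in replicate 1 and 74.2 TPM in replicate 2, a log2 ratio of -1.25, and its adjusted p by the exact binomial test was listed as 0. The other 4 were higher in replicate 2: Crmp1 with 131 ± 14.1 TPM, Dpysl3 with 20.6 ± 3.47 TPM (SD, n = 2), Dpysl4, and the lowest, Dpysl5, with 3.13 TPM. These 4 passed at any size by the same test, as did 23.6% of all genes tested in that direction. The median log2 ratio of the 5 was 0.32.

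Kinases that phosphorylate tau and their activators were led by Camk2a, a calcium-dependent kinase of glutamatergic neurons, at 1545 ± 193 TPM, above every one of the 10 genes. Cdk5 had 102 ± 2.18 and Gsk3b 91.1 ± 26.8 TPM (SD, n = 2), and Ttbk1 was lowest of the 15 at 3.75 TPM. The list also holds Cdk5r1 and Cdk5r2, which encode activators of Cdk5. By the exact binomial test 9 of the 15 were higher in replicate 2 and 3 in replicate 1, beside 23.6% of all genes tested in each direction, with a median log2 ratio of 0.23. Subunits of the phosphatase PP2A, which removes phosphate from tau, were led by the scaffold subunit Ppp2r1a at 709 ± 41.1 TPM, then Ppp2r2b at 95.9 ± 3.59 and Ppp2r2c at 50.4 ± 3.61 TPM (SD, n = 2). The catalytic subunit Ppp2ca was lowest of the 6 at 12.5 TPM, 5 were higher in replicate 2 and 0 in replicate 1, beside 23.6% of all genes tested in each direction and 66.8% in either among genes counted at least as deeply as the lowest of the 10, and the median log2 ratio was 0.16.

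Among 6 kinases that act on stathmins, Mapk10, which encodes JNK3, was highest at 94.7 ± 0.035 TPM, followed by Prkaca at 76.8 ± 16.9 and Mapk9 at 53.4 ± 4.73 TPM (SD, n = 2). Mapk13 was lowest at 0.68 TPM. By the exact binomial test 2 genes were higher in each library, beside 23.6% of all genes tested in each direction, and the median log2 ratio was 0.03. Of 11 genes that modify tubulin, the deacetylase Sirt2 was highest at 133 ± 12.01 TPM, followed by the deglutamylase Agtpbp1 at 86.1 ± 19.9 and Svbp, the partner of the vasohibins, at 63.3 ± 0.389 TPM (SD, n = 2). Vash2 was lowest at 0.37 TPM. By the same test 2 genes were higher in replicate 2 and 1 in replicate 1, beside the same 23.6% in each direction, and the median log2 ratio was 0.03.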

How the data were processed

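Per the file headers, the deposited gene tables give an expected count per gene, not always a whole number, with the TPM and FPKM. The deposited transcript tables hold the same units for a first program, in the column layout of RSEM and with the authors' bounds on TPM, and estimated counts and TPM for a second, in the layout of kallisto. Which aligner and programs were used is not given in the sources used here. The build was mm10 with the M21 annotation, per the text deposited with the tables. The totals of expected counts were 38921671 and 39499357 for replicates 1 and 2, and those of the second program 55151500 and 55608190. No annotated gene is named by 26345 rows of each gene file. They held 9 and 6.49 reads (2.31e-05% and 1.64e-05%) and were left out.

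Counts were rounded to whole numbers for the tests. Library sizes were scaled by TMM (edgeR 4.0.16, R 4.3.3; factors 1.005 and 0.995), and libraries were compared by the exact binomial test over genes whose mean expected count was 50 or more, at an adjusted p under 0.05, with a prior count of 0.5 in log2 ratios. Ratios between programs used TPM with a pseudocount of 0.1. Other steps used Python 3.11.15 with scipy 1.17.1 and pandas 2.3.3. The binomial test was run on simulated counts that held counting error only. This run checked the code and cannot show how the test behaves with spread between libraries. Transcripts were classed by exons of the M21 annotation; complete means a coding sequence with its start and end annotated. Sequences were matched by stretches of 31 bases, and near copies are other genes with at least 20% of their stretches shared.

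The members and gene lists were chosen with earlier results of these data known. Named are all 10 genes, each transcript with at least 5% of its gene's TPM in a library or program, the highest 3 and the lowest of each list by mean TPM, and list genes at least 2-fold apart between libraries. Of the severing enzymes 1 gene, and the sequence of 1 exon, are not reported here. Other transcripts, Katnal2 and Dpysl4 were named after their values were seen. Alternatives were the second program, other units, scalings, filters and tests, each library left out, and, chosen after seeing the data, complete coding transcripts only, the share of the leading Map1b transcript by program and unit, and every alternative for the shares with Mapt exon 4A, Mapt exon 8 and the Map2 repeat exon. Reads copied by PCR carry no molecular identifiers, so intervals cover counting error only. No flag for samples far from others could be given with 2 libraries.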

Additional observations from a re-analysis of the deposited data

How the results depend on the processing

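The number of the 10 genes that differed between the libraries at any size was 10, and 0 with edgeR's exactTest at a preset dispersion of 0.01. It was 9 or 10 under other scalings, filters, the prior count of 5 and the second program, and each gene kept its direction in all of these. Over all genes, 339 passed at 2-fold, 909 with no minimum count, 739 with a mean count of at least 10, and 335 to 412 under the other settings. The 2N share of Mapt was 33.9%, and 38.3% in the second program, 22.4% by expected counts and 30.4% with incomplete transcripts; leaving out a library gave 32.9% to 34.9%. The long share of Map2 was 56.1%, and 52.5%, 60.4% and 65.2% under the same settings; leaving out a library gave 55.99% to 56.2%. The cause of these shifts was not tested. The 4R share stayed at 100% because no annotated transcript skips exon 10. No paired analysis was possible because there is 1 group. Mapt-201, Mapt-211, Map2-201, Map2-215 and Map6-201, among others, hold 0 stretches of 31 bases of their own, and whether depth or annotation limits their shares was not tested. The common coefficient of variation between the libraries was 16.6% over 16640 genes.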
